A study of Mus musculus with 3 samples.

Results

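YAP (2SA) liver was compared with YAP (WT) liver, with 1 array for each. The study delivered Myc-tagged human YAP to the livers of male c57BL6/J mice aged 8 weeks by hydrodynamic tail vein injection, a rapid injection of plasmid in a large volume that leaves the transgene in a share of the hepatocytes. The liver was therefore a mosaic of cells with and without it. Expression ran from the pLIVE vector, in which an AFP enhancer and a minimal albumin promoter restrict it to hepatocytes, and total RNA of the liver was taken at 2 days. YAP (2SA) is a serine-to-alanine mutant of YAP that the study used as an active form, and YAP (WT) is the unmutated protein. The WT liver received the injection, the vector and a YAP transgene as well, so the comparison was of mutant against wild-type YAP and not of YAP against none. Whether each RNA came from a single mouse or from several mixed together is not in the labels, where the WT title ends in the number 2. The third array of the series held liver with another mutant, YAP (1SA), of the same strain and time. Its values are given beside those of the other arrays. A difference of 1SA from WT rests on the same WT array.

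The members were chosen by signal alone. A probe entered when it was marked well above background on the 2SA array and on the WT array, which held for 28290 of 55681 probes. Each intensity was expressed as a percentage of the 75th percentile of its own array, called the scaled level here, and differences were taken on the log2 scale as 2SA minus WT. Where levels are followed by a number in brackets, it is this log2 difference. The named probes stood for 13786 of 20284 genes on the array, each given by its brightest measured probe. With 1 array for each group there is no replicate and no test, and "higher" and "lower" describe these arrays. A change was counted when it reached 2-fold, a log2 difference of 1.

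YAP is a transcriptional coactivator. When the Hippo kinase cascade is active, MST and LATS kinases phosphorylate YAP, which then stays in the cytoplasm. YAP that escapes this phosphorylation enters the nucleus and works through TEAD proteins, DNA-binding factors that drive genes of the matricellular CCN family, genes of cell division and inhibitors of YAP itself. In the liver the pathway is known for its control of organ size and of hepatocyte identity.

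Relative to WT, the 2SA liver had higher levels of the YAP target Ccn2, of most measured genes of DNA replication and mitosis, of most enzymes of cholesterol synthesis and of the macrophage growth factor Csf1. It had lower levels of several resident Kupffer cell markers, of the bile acid enzyme Cyp7a1, of metallothioneins and of a few liver transcription factors. In all, 261 probes were at least 2-fold higher, 0.923% of those measured, and 207 were lower by that factor, 0.732%. Among named genes the counts were 158 higher, 1.15%, and 80 lower, 0.58%. The median difference over measured genes was -0.03, 43.4% of them were higher by any amount, and 90.3% lay within 0.5 log2 units of 0. All values come from whole liver, in which fewer cells of a type and less RNA per cell cannot be told apart.

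Repeated spots gave the only repeat measurement. Over 312 probes with repeated spots measured on both arrays, the median SD of a difference was 0.10. It was 0.08 above the median signal and 0.19 at or below it. This covers the error of spots and not the spread between animals. The tissue was checked by markers. Albumin (Alb) had a scaled level of 104474 in 2SA, 127949 in WT and 136885 in 1SA, and transthyretin (Ttr) 61943 in 2SA, 65993 in WT and 70299 in 1SA. The hepatocyte markers summed to 366947 on WT and 320615 on 2SA. The bile duct markers Krt19, Krt7, Epcam and Cftr summed to 72.8 on WT, 45.1 on 1SA and 70.1 on 2SA, and the lymphocyte marker Ncr1 and the stellate marker Reln were not well above background on WT or 2SA. The Yap1 probe had a scaled level of 1301 in 2SA, 1501 in WT and 1371 in 1SA. It is assigned to the mouse gene, and whether it also reads the human transgene was not tested. The labels were therefore not checked by it.

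**Figure D1:**
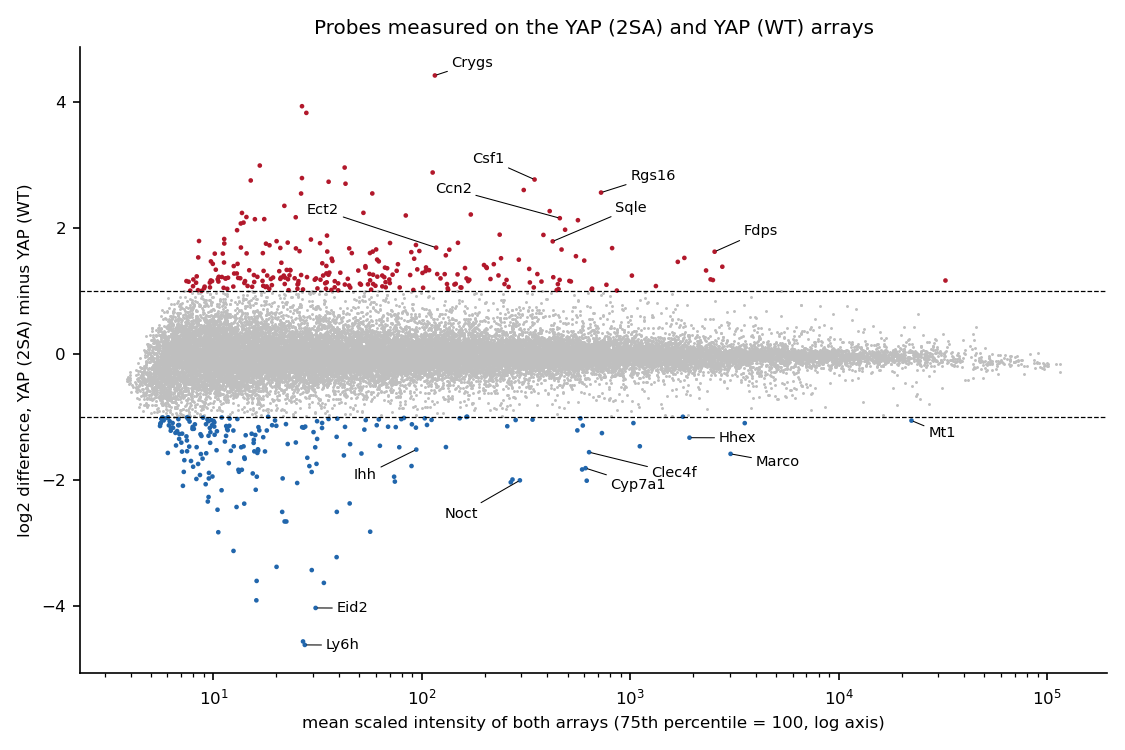
Each point is a probe measured on the 2SA and WT arrays, with the geometric mean of its scaled level on the x axis (75th percentile = 100, log axis) and its log2 difference, 2SA minus WT, on the y axis; dashed lines mark 2-fold, and 261 red probes lie above and 207 blue probes below. Crygs lies highest among the named genes, and Ly6h and Eid2 are probes low on 2SA with a mean level below the median signal.

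The size of the differences depended on the signal. Among the dimmest 7073 of the measured probes, 74 lay 2-fold or more above WT and 123 below it, while among the brightest 7073 the counts were 22 and 15. The SD of the differences was 0.43 in the dimmest set and 0.21 in the brightest. Probes for named genes, 17809 in number, had 196 higher and 102 lower past 2-fold. Probes placed by genome position, mostly for lincRNAs, had the reverse order, with 33 higher and 65 lower among 4955. They were dimmer, with a median scaled level of 20.2 against 135 for probes of named genes, and the part of signal in this was not tested.

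Genes of the TEAD-driven programme were read first. Ccn2 (Ctgf), a secreted matricellular protein and the classical YAP target, had a scaled level of 968 in 2SA, 218 in WT and 160.1 in 1SA. The 2SA level was 4.45-fold that of WT. Ccn1 (Cyr61), its relative, was 455 in 2SA, 123 in WT and 184 in 1SA, a log2 difference of 1.89. Gadd45a, a stress-induced growth inhibitor, was 258 in 2SA, 100.4 in WT and 140.0 in 1SA (log2 difference 1.36), and Amotl2, an angiomotin that holds YAP back, was 488 in 2SA, 223 in WT and 249 in 1SA (1.13). These were the 4 of 19 measured members of the YAP and TEAD target list that were at least 2-fold higher, and none was 2-fold lower. The rest ranged from -0.56 for the phosphatase Ptpn14 to 0.72 for Asap1. Ankrd1, another well-known target, was 12.4 in 2SA, 12.5 in WT and 4.38 in 1SA, a difference of -0.02, and the kinase Axl differed by 0.02. The list median was 0.02, beside -0.03 over all measured genes. For the 12 brighter members alone, those past the median signal of measured probes, it was 0.59.

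The promoters of 2 of these genes are shown because they hold the TEAD core GGAATG, which in both lies on the other strand and is printed in capitals as its reverse complement. They cover 250 bases before to 50 after the annotated start, from RefSeq on build GRCm38.p6, and are written 5′ to 3′ along the gene.
Ccn1, chr3:145649936-145650235, minus strand: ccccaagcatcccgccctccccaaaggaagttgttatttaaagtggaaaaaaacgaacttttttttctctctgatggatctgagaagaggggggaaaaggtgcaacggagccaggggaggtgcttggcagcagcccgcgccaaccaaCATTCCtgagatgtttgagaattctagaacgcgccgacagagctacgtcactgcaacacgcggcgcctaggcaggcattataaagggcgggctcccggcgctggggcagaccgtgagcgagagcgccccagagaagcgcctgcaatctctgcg
Amotl2, chr9:102717554-102717853, plus strand: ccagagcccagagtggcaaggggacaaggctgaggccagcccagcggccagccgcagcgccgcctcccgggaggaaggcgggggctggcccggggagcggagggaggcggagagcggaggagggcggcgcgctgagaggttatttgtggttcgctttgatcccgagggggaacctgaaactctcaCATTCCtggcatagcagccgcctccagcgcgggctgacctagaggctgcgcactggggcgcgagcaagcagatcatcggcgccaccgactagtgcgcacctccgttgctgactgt
The match lay 103 bases before the start in Ccn1 and 65 bases before it in Amotl2. Of the 13 measured list members with a promoter in the table, 7 (53.8%) held the core on either strand, as did 14.7% of all 32851 promoters and 14.9% of the 10992 measured genes with a promoter. Among the named genes at least 2-fold higher the share was 16.4% of 122, and among those at least 2-fold lower 16.7% of 66. A match is a description of the letters and not a binding site.

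Hippo pathway components differed less. Tead1, a DNA-binding partner of YAP, was 146 in 2SA, 70.5 in WT and 73.1 in 1SA, a difference of 1.05, and it was the 1 of 19 measured members past 2-fold. With normexp background correction no member was past 2-fold. Wwc1 (Kibra), an upstream activator of the cascade, differed by 0.61, and the kinase gene Lats2 by 0.40 with its brightest probe and 0.59 with the other. Yap1 itself differed by -0.21, Mob1a by -0.26 and Mob1b by -0.32. MOB1 proteins are the adaptors of the LATS kinases. The list median was 0.05.

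Genes of cell division were mostly higher. Of 47 measured genes of DNA replication and S phase, 42 were higher and 10 at least 2-fold higher, none was 2-fold lower and the median difference was 0.57. Of 56 measured genes of mitosis and cytokinesis, 55 were higher and 13 at least 2-fold higher, with a median of 0.81. The first list is known for genes of replication origins, polymerases and nucleotide supply, and the second for genes of spindle, chromosome and cleavage furrow. The counts of 42 and 55 higher genes were the same under quantile normalisation, array median scaling and normexp background correction. Normexp with an offset, which pulls dim probes together, left 5 replication and 3 mitotic genes past 2-fold.

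Rrm2, the small subunit of ribonucleotide reductase, was 938 in 2SA, 320.4 in WT and 772 in 1SA, a log2 difference of 1.55. Dtl, which targets the licensing factor Cdt1 for destruction, was 62.3 in 2SA, 21.9 in WT and 31.8 in 1SA (1.51). Mcm5, a subunit of the replicative helicase, was 362 in 2SA, 135 in WT and 216 in 1SA (1.42). Cdc6, a loader of that helicase, was 16.3 in 2SA, 6.46 in WT and 14.6 in 1SA (1.34). Each of these 4 genes was highest in 2SA and lowest in WT, and Cdc6 lay close to 4.30, the lowest level measured on the WT array. All 6 subunits of the MCM2-7 helicase were higher, from 0.70 for Mcm4 and 0.74 for Mcm3 to 1.42 for Mcm5. The E2F activator gene E2f1 differed by 1.19 and E2f8, a repressor of the same family, by 1.07. Among the 5 replication genes below WT, Mcm10 had the lowest difference (-0.44), and Gmnn, an inhibitor of origin licensing, differed by -0.11.

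Ect2, an exchange factor for small GTPases that acts in cytokinesis, was 209.9 in 2SA, 65.2 in WT and 129 in 1SA, which made 2SA 3.22-fold WT. Pbk, a mitotic kinase, was 102 in 2SA, 33.1 in WT and 90.2 in 1SA (1.62), and Cdca5 (sororin), which holds sister chromatids together, was 157 in 2SA, 64.5 in WT and 118 in 1SA (1.28) over repeated spots. Nuf2, a kinetochore protein, was 33.5 in 2SA, 14.5 in WT and 33.8 in 1SA (1.21). On the 1SA array these genes stood above WT as well, and Nuf2 was as high there as on 2SA. The cyclin-dependent kinase Cdk1 differed by 1.05, its partner cyclin Ccna2 by 1.02 and the proliferation marker Mki67 by 0.59. The members on either side of 2-fold were Kif23 at 1.01 and Ndc80 at 0.99, a difference within the spot error. Pttg1 (securin) was the 1 mitotic gene below WT, at -0.25.

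The Mcm5 promoter is shown for its E2F-type letters TTGGCGC, which lie on the other strand and are printed as their reverse complement, and the Ect2 promoter for the CHR element TTTGAA, a motif of late cell cycle genes. They have the same length, source and build as above.
Mcm5, chr8:75109259-75109558, plus strand: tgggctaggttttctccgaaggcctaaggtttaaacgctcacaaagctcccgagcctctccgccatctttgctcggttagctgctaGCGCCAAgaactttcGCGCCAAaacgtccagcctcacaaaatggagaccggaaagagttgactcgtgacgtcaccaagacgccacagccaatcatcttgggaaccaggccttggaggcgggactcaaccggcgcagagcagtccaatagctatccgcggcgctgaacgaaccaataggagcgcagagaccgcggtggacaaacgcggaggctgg
Ect2, chr3:27153805-27154104, minus strand, the first of 2 listed starts: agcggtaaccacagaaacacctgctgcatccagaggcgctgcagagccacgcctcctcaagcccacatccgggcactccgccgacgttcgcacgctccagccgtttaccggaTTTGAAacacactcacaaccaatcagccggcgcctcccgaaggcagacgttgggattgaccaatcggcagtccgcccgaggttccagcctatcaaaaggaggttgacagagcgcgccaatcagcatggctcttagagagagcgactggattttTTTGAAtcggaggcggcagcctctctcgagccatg
Mcm5 held a pair of E2F-type matches, 164 and 149 bases before the start, and Ect2 held TTTGAA 138 bases before and 15 bases after it. Of the 39 measured replication genes with a promoter, 13 (33.3%) held TTGGCGC and 17 (43.6%) held TTCCCGC, another E2F-type motif, against 4.66% and 8.86% of measured genes and 2.45% and 4.60% of all promoters. TTTGAA was in 33 of 47 mitotic genes (70.2%), in 15.02% of measured genes and in 17.9% of all promoters. The motif shares describe how the lists were composed.

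Repair genes and G1 regulators were read beside them. Of 26 measured genes of homologous recombination and Fanconi repair, 21 were higher and 5 at least 2-fold higher, with a median of 0.41. Most were dim: the 4 brighter members had a median of 0.04, and with normexp the list median was 0.20 and 1 gene was past 2-fold. Rad51ap1, a factor of homologous recombination, was 103 in 2SA, 37.3 in WT and 82.5 in 1SA (1.47), and Fanca, a core Fanconi protein, was 86.2 in 2SA, 33.4 in WT and 57.7 in 1SA (1.37). Of 19 G1 cyclins and inhibitors none reached 2-fold and 15 were higher. Ccnd1 (cyclin D1) differed by 0.36 and Myc by 0.40, with a level of 171 in 1SA against 95.4 in 2SA. Cdkn1a (p21), a brake on the cycle, differed by 0.51 with its brightest probe and 1.12 with the other. The 34 measured p53 targets and apoptosis genes had no member past 2-fold and a median of 0.08. The pro-apoptotic gene Bbc3 (Puma) differed by 0.75 and the death receptor gene Tnfrsf10b by 0.77.

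Exchange factors load GTP onto CDC42 and Rac, the small GTPases that the study tested for their part in hepatocyte loss. Of 46 measured genes, Ect2 was the 1 past 2-fold, and the list median was 0.03. Fgd3 had a brighter probe at 73.6 in 2SA, 37.7 in WT and 18.2 in 1SA (0.97) and a dimmer one that differed by 2.35. The probes of Fgd3 both stood higher on 2SA than on WT. Vav3 differed by 0.65 and Dnmbp (Tuba) by 0.54, and at the other end Tiam1 differed by -0.44. The GTPase genes themselves, Cdc42 with 4461 in 2SA, 4044 in WT and 3818 in 1SA and Rac1 with 2243 in 2SA, 2057 in WT and 1961 in 1SA, differed by 0.14 and 0.12. Of 43 measured effectors of CDC42 and Rac, Iqgap3, a scaffold protein, was the 1 past 2-fold (1.15), followed by the formin gene Diaph3 (0.97). No effector passed 2-fold with normexp.

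Enzymes of cholesterol synthesis formed another block. Of 26 measured genes of sterol synthesis and uptake, 23 were higher and 9 at least 2-fold higher, and the median was 0.52. With normexp 6 were past 2-fold. Sqle (squalene epoxidase), which makes the first oxygenation step, was 788 in 2SA, 228 in WT and 1016 in 1SA, a difference of 1.79. Fdps, which makes farnesyl diphosphate, was 4449.8 in 2SA, 1447 in WT and 7651 in 1SA (1.62), and Mvd, the mevalonate decarboxylase, was 155 in 2SA, 54.4 in WT and 209.9 in 1SA (1.51). Hmgcs1, a synthase early in the pathway, was 4460.2 in 2SA, 1711 in WT and 5975 in 1SA (1.38). For each of these 4 genes the 1SA array had the highest level, 2SA the next and WT the lowest. Insig1, which retains the sterol sensor in the endoplasmic reticulum, differed by 1.36. The regulator gene Srebf2 differed by -0.09 with its brightest probe and 0.63 with the other.

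The Hmgcs1 promoter is printed for its sterol regulatory element letters TCACNCCAC, where N is any base, and its CCAAT boxes, both in capitals.
Hmgcs1, chr13:119690101-119690400, plus strand: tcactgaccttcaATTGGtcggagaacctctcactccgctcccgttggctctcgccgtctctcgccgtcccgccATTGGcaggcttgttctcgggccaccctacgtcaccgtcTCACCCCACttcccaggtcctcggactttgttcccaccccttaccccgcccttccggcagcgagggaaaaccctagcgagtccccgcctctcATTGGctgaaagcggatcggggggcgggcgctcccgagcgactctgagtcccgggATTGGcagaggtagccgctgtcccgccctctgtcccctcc
It held 1 match to TCACNCCAC, 137 bases before the start, and 4 to CCAAT, all on the other strand and printed as ATTGG. Of the 18 measured sterol genes with a promoter, 16 (88.9%) held CCAAT on either strand and 1 (5.56%) held TCACNCCAC, against 42.6% and 1.44% of measured genes and 37.4% and 1.24% of all promoters.

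Lipid genes outside that pathway differed less. No member of the 22 measured genes of fatty acid and triglyceride synthesis reached 2-fold, 19 were higher and the median was 0.16. Fasn (fatty acid synthase) was 78.3 in 2SA, 41.7 in WT and 103 in 1SA (0.91) and Acaca (acetyl-CoA carboxylase) had 3 probes between 0.70 and 0.72. Of 32 PPAR alpha targets and genes of fatty acid oxidation, 24 were lower and none reached 2-fold, with a median of -0.20. Ehhadh, a peroxisomal enzyme of this pathway, was 1753 in 2SA, 2537 in WT and 1742 in 1SA (-0.53). Angptl4 and Pdk4, targets of the same receptor that respond to fasting, went the other way with 0.78 and 0.82. In gluconeogenesis and glycogen 1 of 17 genes passed 2-fold, the insulin-suppressed binding protein gene Igfbp1 at 1925 in 2SA, 913 in WT and 1535 in 1SA (1.08).

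**Figure D2:**
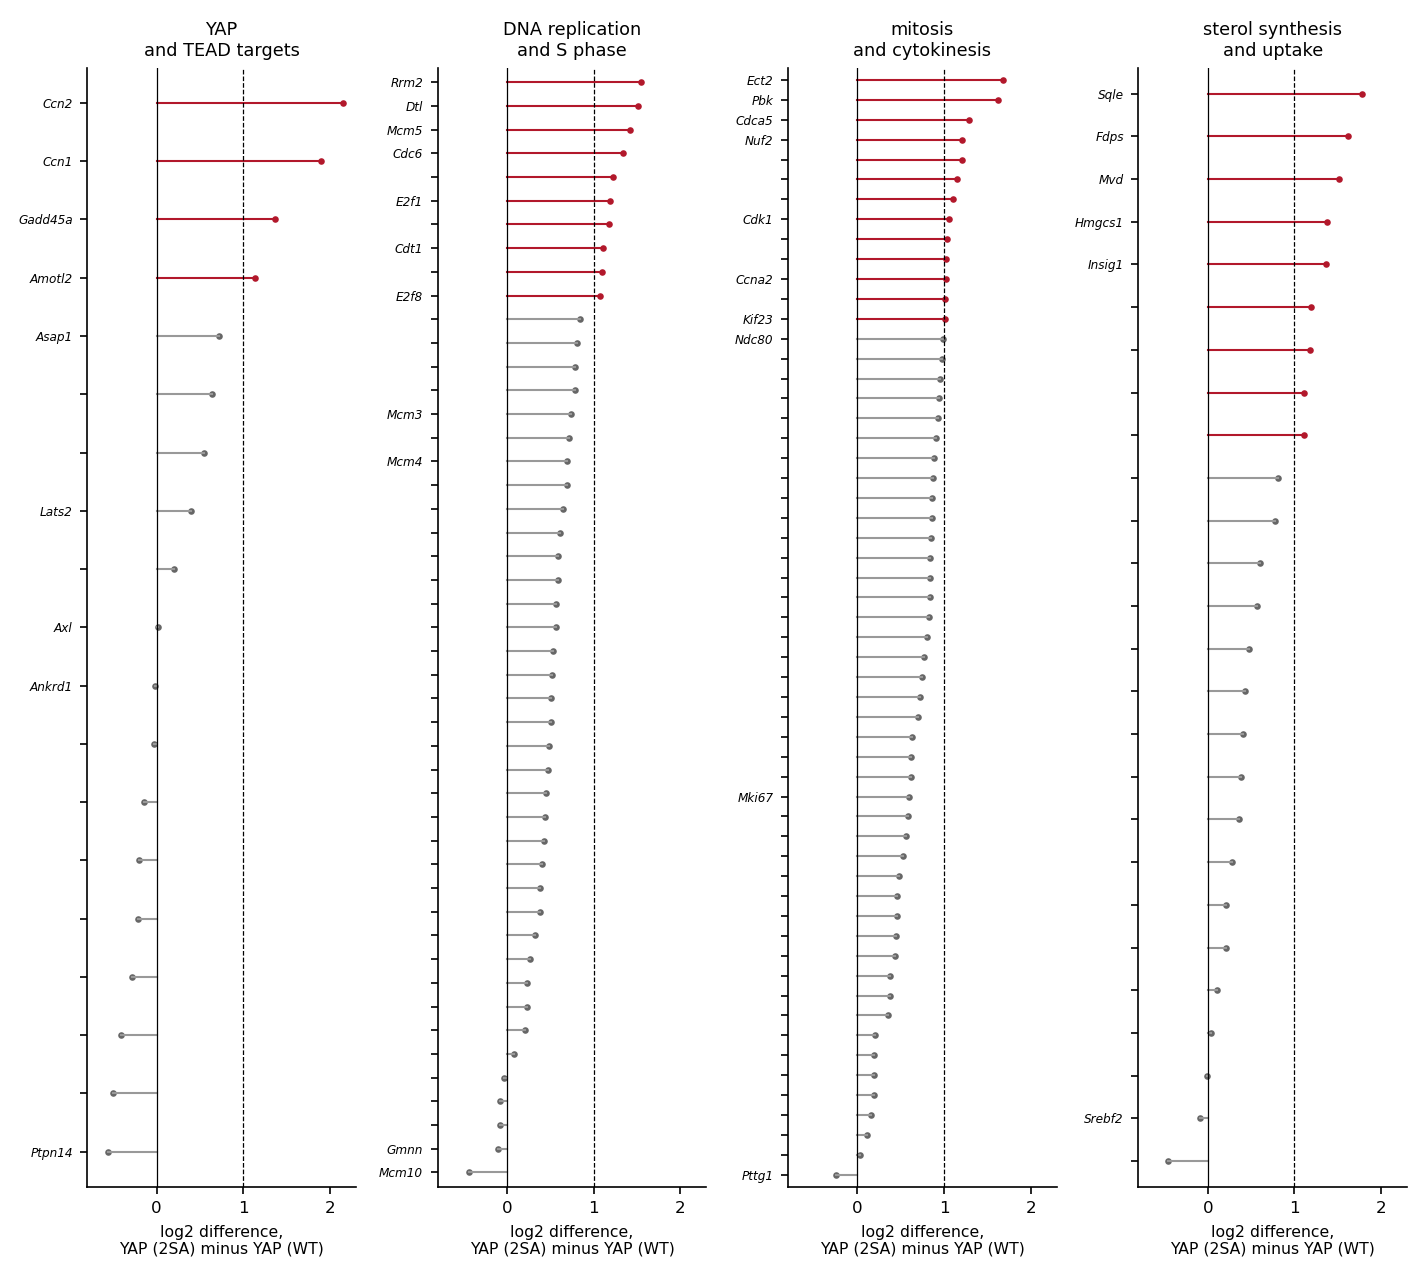
Measured members of 4 gene lists, with the log2 difference of 2SA minus WT on the x axis, a line from 0 to each value, and red for genes at least 2-fold higher (dashed line); genes described in the text are labelled. In the list of mitosis and cytokinesis 55 of 56 genes are right of 0 and in DNA replication 42 of 47, while YAP and TEAD targets spread to both sides.

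The genes with the largest differences were of several kinds. Crygs, a structural crystallin of the lens, was 534 in 2SA, 24.9 in WT and 79.8 in 1SA, which made 2SA 21.4-fold WT, the largest rise among named genes. Csf1, the growth factor on which macrophages depend, was 906 in 2SA, 133 in WT and 121 in 1SA, 6.81-fold higher over 10 spots. Its other probes differed by 1.76 and 1.65. Rgs16, a regulator of G protein signalling, was 1757 in 2SA, 298 in WT and 175 in 1SA (2.56). On 1SA, Rgs16 stood below WT, Csf1 lay close to WT, with 1SA minus WT at -0.14, and Crygs stood between the other arrays.

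Bcl6, a transcriptional repressor, was 899.7 in 2SA, 187 in WT and 429 in 1SA (2.27). Sftpd (surfactant protein D), a secreted collectin, was 1169 in 2SA, 269 in WT and 104 in 1SA, and its probes differed by 2.12 and 2.21. Tinag, a basement membrane protein, was 179 in 2SA, 39.1 in WT and 20.4 in 1SA (2.20). Fads3, of the fatty acid desaturase family, was 963 in 2SA, 246 in WT and 227 in 1SA (1.97), and Ccdc9b was 736 in 2SA, 199 in WT and 179 in 1SA (1.89). Sftpd, Tinag, Fads3 and Ccdc9b were highest on 2SA. Sftpd and Tinag were lowest on 1SA, while Fads3 and Ccdc9b lay close to WT there, with 1SA minus WT at -0.11 and -0.15. Of the 15 largest rises 7 were above the median signal of measured probes. The other 8, Zfp788, Zfp185, Fibin, Mab21l4, Gal3st2, Fbf1, Gpc3 and Rsf1, had scaled levels of 5.81 to 24.1 on WT and 33.1 to 140 on 2SA, and were read from single spots. The other probes of Rsf1 differed by 0.41 and 0.21, so its large difference rested on 1 probe.

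Among the falls 3 of the 15 largest were above the median signal. Slc25a25, a mitochondrial ATP-Mg carrier, was 307 in 2SA, 1243 in WT and 1987 in 1SA, and its probes differed by -2.02 and -2.04. Noct (nocturnin), an enzyme known for its daily rhythm in liver, was 147 in 2SA, 593 in WT and 741 in 1SA (-2.01). Mfsd2a, a transporter of lysophosphatidylcholine, was 136 in 2SA, 544 in WT and 386 in 1SA and so lowest in 2SA. Slc25a25 and Noct were highest on 1SA and lowest on 2SA. Below them came Cish, a STAT5-induced inhibitor of cytokine signalling, with 310.4 in 2SA, 1110.1 in WT and 1766 in 1SA (-1.84), and Cyp7a1, the rate-limiting enzyme of bile acid synthesis, with 325 in 2SA, 1145 in WT and 987 in 1SA (-1.82). Ihh, a Hedgehog ligand, was 55.4 in 2SA, 159 in WT and 317 in 1SA (-1.52), and Hhex, a homeobox factor of liver and endothelium, was 1211 in 2SA, 3051 in WT and 2907 in 1SA (-1.33). Cbr3, a carbonyl reductase, differed by -1.47, Cidec, a lipid droplet protein, by -1.48, and Plk3, a stress-responsive kinase, by -1.22 with a level of 3195 in 1SA against 849 in WT.

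**Figure D3:**
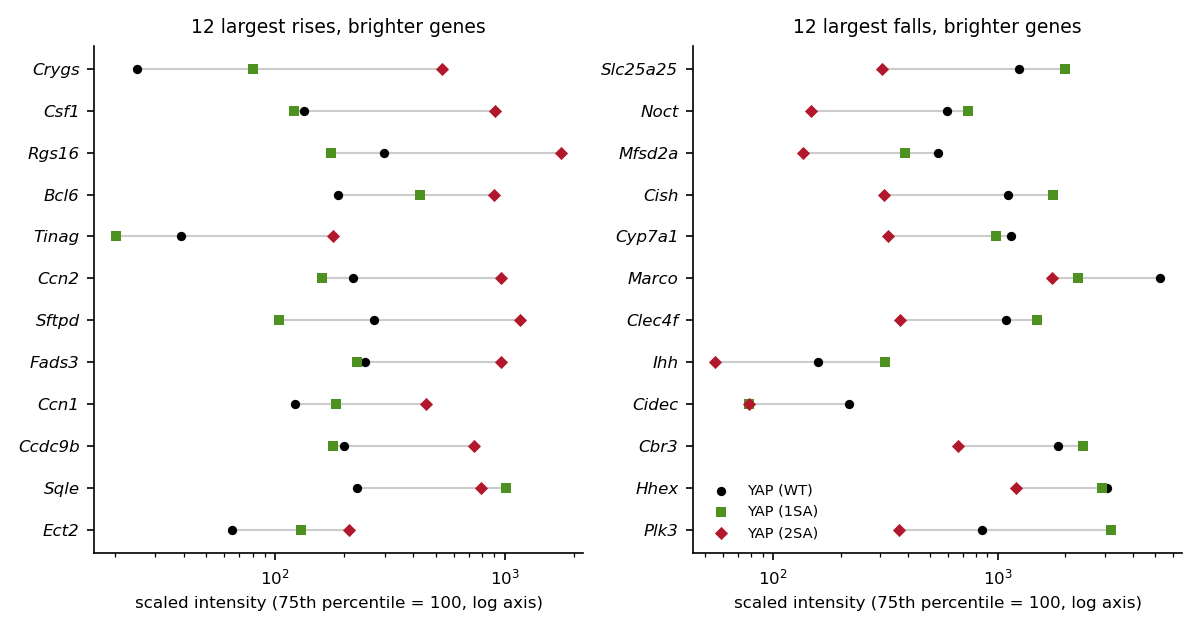
Scaled level (75th percentile = 100, log axis) of the 12 named genes with the largest rise and the 12 with the largest fall in 2SA against WT among genes above the median signal, with 1 point for each array: black circles WT, green squares 1SA, red diamonds 2SA. In the left panel every 2SA point lies right of its WT point, by the most for Crygs (24.9 to 534), and in the right panel every 2SA point lies left of it, with Slc25a25 at 1243 on WT and 307 on 2SA.

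The remaining large falls were of probes whose mean over both arrays was at or below the median signal of 82.3. The fall itself lowers that mean, and on WT alone Ly6h and Eid2 were above it. Ly6h, a GPI-anchored protein, was 5.52 in 2SA, 136 in WT and 5.95 in 1SA (-4.63), and Eid2, an inhibitor of differentiation, was 7.62 in 2SA, 125 in WT and 5.41 in 1SA (-4.04). The 12 dimmer members of the 15 largest falls, among them Asrgl1, Grhl1, Lekr1, Nup188, Chat, Guca1a, Krt28, Themis and Nme8, had scaled levels of 16.5 to 136 on WT and 4.15 to 19.7 on 2SA. Each was read from a single spot, and the 1SA levels lay between 0.940 and 34.1. The second probe of Nup188 differed by 0.32, against -2.51 for the first. Where several probes covered a gene, agreement differed between the sides. For 20 genes with a brightest probe at least 2-fold higher, 22 of 23 other probes were higher and 16 at least 2-fold. For 12 genes with a brightest probe at least 2-fold lower, 9 of 13 other probes were lower and 5 at least 2-fold.

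Probes measured on 1 array only were kept apart, because their difference is only a bound. Of 2483 probes measured on 2SA and not on WT, 269 were at least 2-fold higher, and of 669 measured on WT and not on 2SA, 535 were at least 2-fold lower. The lowest measured scaled level was 4.30 on WT and 1.86 on 2SA. The largest bounds among named genes with no measured probe on both arrays were for Pdzd2, at least 29.0-fold higher with 125 in 2SA, 0.890 in WT and 0.767 in 1SA, and for the glutamate receptor subunit gene Grin2a, at least 24.5-fold higher with 105 in 2SA, 1.07 in WT and 0.943 in 1SA. They were followed by Il1rapl1, Cmklr1 and Rgcc. On the lower side Kcnab3, a potassium channel subunit, was at least 92.9-fold lower with 2.02 in 2SA, 187 in WT and 3.25 in 1SA, followed by Synb (at least 48.7-fold), Pramel6, Pou3f2 and Rubcnl. These 5 had scaled levels of 52.5 to 187 on WT and of at most 7.34 on 1SA.

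Hepatocyte lists had medians slightly below 0. They are to be read beside all measured genes, of which 43.4% were higher. Of 26 measured genes of secreted hepatocyte proteins 23 were lower, none by 2-fold, with a median of -0.16. Apoc1 differed by -0.32, Apoa4 by -0.47 and Alb by -0.29. Quantile normalisation left 11 of the 26 higher in place of 3 and put the median at -0.03, so the direction of single genes in this list depended on the scaling. Of 27 cytochrome P450 genes and partners 16 were lower, with a median of -0.06 and no member past 2-fold. Acute phase proteins had 21 of 28 lower. Quantile normalisation put 13 P450 genes on either side of 0 and left 15 acute phase genes lower. Por, the reductase that feeds electrons to them, was 5369 in 2SA, 10014 in WT and 7082 in 1SA (-0.90) and Cyp2b10 was 1664 in 2SA, 2715 in WT and 1407 in 1SA (-0.71). Among 29 conjugating enzymes 22 were lower, with Gstm3 at -0.81 and Gsta1 at -0.72, whereas the sulfotransferase Sult1a1 was higher at 0.70.

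Genes of liver identity varied more. Onecut1 (HNF6), a hepatic transcription factor, was 50.01 in 2SA, 112 in WT and 147 in 1SA (-1.17) and was the 1 of 20 measured factors past 2-fold, while 13 of the 20 were lower. With normexp no factor passed 2-fold. Foxa2 was 829 in 2SA, 1443 in WT and 1348 in 1SA (-0.80) and Foxa3 221 in 2SA, 384 in WT and 395 in 1SA (-0.80), both pioneer factors of liver genes, and the nuclear receptor gene Nr1i3 (CAR) was 706 in 2SA, 1106 in WT and 1218 in 1SA (-0.65). On 1SA these 4 genes lay close to or above WT. Hnf4a differed by -0.12 and Cebpa by 0.02. Of 18 pericentral hepatocyte genes, which line the central vein and depend on WNT, 15 were lower with a median of -0.29. The WNT readouts Axin2 (-0.84), Nkd1 (-0.60) and Lgr5 (-0.60) were among the lowest, while Glul (glutamine synthetase) differed by -0.10. Axin2 and Lgr5 were dim, at 6.66 and 22.5 in 2SA and 11.9 and 34.1 in WT. Lect2, a bright gene also among the lowest, differed by -0.63, with 5930 in 2SA and 9201 in WT. The 23 periportal genes had a median of -0.13 and 19 were lower, or 15 with quantile normalisation. In bile acid genes, beside Cyp7a1, the 12-alpha-hydroxylase gene Cyp8b1 was 1066 in 2SA, 604 in WT and 1076 in 1SA (0.82) and the sterol transporter genes Abcg5 and Abcg8 differed by -0.54 and -0.59.

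Clock genes moved in both directions. Arntl (Bmal1), the activator of the clock, was 37.1 in 2SA, 16.2 in WT and 13.3 in 1SA (1.20), and Nr1d1 (Rev-erb alpha), its repressor, was 324 in 2SA, 184 in WT and 115 in 1SA (0.82). Usp2, a rhythmic protease, was 404 in 2SA, 822 in WT and 1034 in 1SA (-1.03), and the repressors Ciart, Per2 and Cry1 differed by -0.84, -0.73 and -0.70. The clock output gene Dbp was 7075 in 2SA, 8674 in WT and 8445 in 1SA (-0.29). Over 19 measured clock genes 13 were lower, 1 passed 2-fold in each direction and the median was -0.29. With normexp no clock gene passed 2-fold. The hour at which each liver was taken is not given in the sources used here, so time of day and YAP form cannot be told apart.

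Liver macrophages were read through their markers, since Kupffer cells are the macrophages that reside in liver sinusoids. Of 22 measured resident Kupffer cell markers 18 were lower, 2 of them by at least 2-fold, and the median was -0.42. Marco, a scavenger receptor, was 1744 in 2SA, 5253 in WT and 2270.0 in 1SA (-1.59). Clec4f, a lectin found on mouse Kupffer cells, was 369 in 2SA, 1090.1 in WT and 1493 in 1SA (-1.56). Timd4, a receptor for dying cells, was 45.2 in 2SA, 88.7 in WT and 69.3 in 1SA (-0.97), and the complement receptor Vsig4 was 736 in 2SA, 1377 in WT and 1444 in 1SA (-0.90). Clec4f and Vsig4 were lower on 2SA than on both other arrays, and Marco was lower on both mutants than on WT. Cd5l, a secreted macrophage protein, differed by -0.84. The receptor gene for Csf1, Csf1r, was 3755 in 2SA, 3769.8 in WT and 3642 in 1SA (-0.01), and Adgre1 (F4/80), a general macrophage marker, differed by -0.16. The 5 defining markers Clec4f, Vsig4, Timd4, Cd5l and Marco summed to 19352 on WT, 13884 on 1SA and 9336 on 2SA. Most of each sum came from Marco and Cd5l, the latter at 6442 in 2SA, 11544 in WT and 8608 in 1SA. On 1SA, Clec4f was above WT and Vsig4 close to it, so the order of the sums did not hold for each marker.

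Genes of recruited myeloid cells were split. Of 25 measured genes of infiltrating and activated macrophages 15 were higher and 10 lower, with a median of 0.12. Past 2-fold there were 3 higher and 0 lower, or 2 and 0 with normexp. Chil3, a product of activated macrophages, was 358 in 2SA, 151 in WT and 69.3 in 1SA (1.24), and Cx3cr1, the fractalkine receptor of monocytes, was 248 in 2SA, 108 in WT and 72.5 in 1SA (1.20). Ccl2, the main chemokine for monocytes, was 557 in 2SA, 252 in WT and 130.5 in 1SA (1.15) over 10 spots. These 3 genes were highest on 2SA and lowest on 1SA. Ccr2, the receptor for Ccl2, was 87.3 in 2SA, 48.5 in WT and 244 in 1SA and so highest on 1SA. Lyz2, lysozyme of macrophages, differed by 0.55. In the wider list of chemokines and receptors 20 of 28 were higher and 4 past 2-fold, with Ccl7 (1.27) and Ccl12 (1.07) beside those named and a list median of 0.13. With normexp 17 were higher and 2 past 2-fold. The engulfment receptors and bridging molecules had a median of 0.01 over 28 genes, with Msr1 at 0.52 and Gas6 at 0.44.

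**Figure D4:**
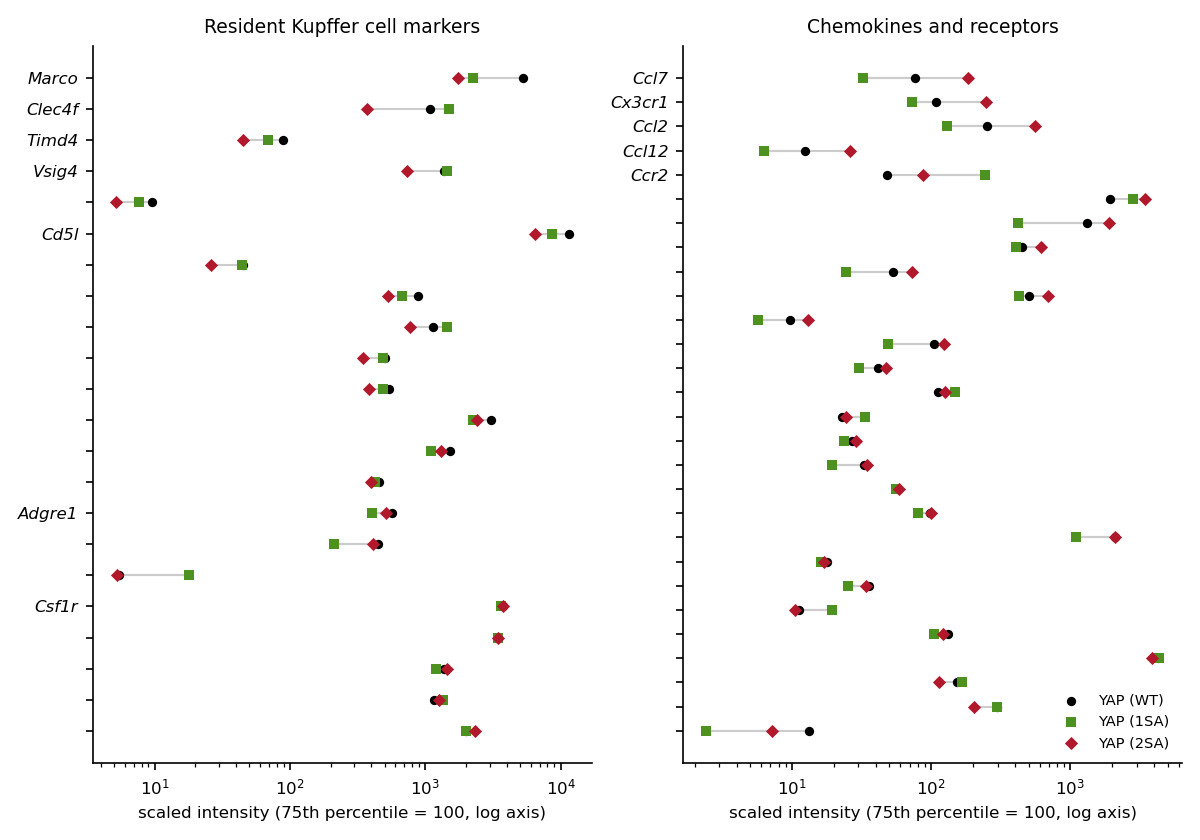
Scaled level (75th percentile = 100, log axis) on each array of 22 resident Kupffer cell markers, ordered from the lowest difference of 2SA from WT, and of 28 chemokines and receptors, ordered from the highest; black circles WT, green squares 1SA, red diamonds 2SA, with names on the genes described in the text. Marco, Clec4f, Timd4 and Vsig4 lie lower on 2SA than on WT, and Ccl7, Cx3cr1, Ccl2 and Ccl12 lie higher.

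Other immune and stromal genes were read by list. The 41 measured interferon-stimulated genes had no member past 2-fold and a median of 0.09, with the antiviral gene Rsad2 at 741 in 2SA, 389 in WT and 295 in 1SA (0.93) and Isg15 at 11752 in 2SA, 7568 in WT and 3343 in 1SA (0.64). Lymphocyte markers had a median of 0.15 over 24 genes, with the granzyme gene Gzma at 0.59, but the 9 brighter members had a median of -0.08. The 13 neutrophil genes had a median of 0.04. Complement and coagulation genes had a median of -0.06 over 37, with 24 lower, or 19 under quantile normalisation. The 2 members past 2-fold, the C5a receptor C5ar1 (55.0 in 2SA, 15.6 in WT and 8.40 in 1SA) and the adipsin gene Cfd (6.08 in 2SA, 17.6 in WT and 9.08 in 1SA), were both dim. With normexp 1 was past 2-fold higher and 0 lower. Of 30 stellate cell and collagen genes 24 were lower, none by 2-fold, and the median was -0.29. Col1a1, the main fibrillar collagen, was 522 in 2SA, 839 in WT and 578 in 1SA (-0.68), and Pdgfrb, the receptor of pericytes and stellate cells, was 38.0 in 2SA, 57.8 in WT and 55.4 in 1SA (-0.61). The sinusoidal endothelial list had a median of -0.12 over 25, with the lectin Clec4g at -0.59 and Stab2 at -0.21.

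Lists of dedifferentiation held few members past 2-fold. Of 12 fetal liver and hepatoma genes, 1 was past 2-fold in each direction. With normexp 0 were past 2-fold higher and 1 lower. Gpc3 (glypican 3), an oncofetal proteoglycan, was 36.8 in 2SA, 8.35 in WT and 7.05 in 1SA (2.14), and Cbr3, already given above, differed by -1.47. In the list of bile duct and progenitor markers, 1 of 19 measured members passed 2-fold, the secreted collectin Sftpd given above. The duct markers Krt19, Krt7, Epcam and Cftr differed by -0.08, 0.08, -0.06 and -0.13, with Krt19 at 43.7 in 2SA, 46.1 in WT and 26.1 in 1SA. These lists were drawn up with earlier results known, so the counts past 2-fold depend on which genes, such as Sftpd and Cbr3, were placed in them. S100a4 (fibroblast-specific protein), in the list of epithelial-mesenchymal transition, was 405 in 2SA, 142 in WT and 68.2 in 1SA (1.52), and its other probe differed by 1.38. Occludin (Ocln), an epithelial junction protein of the same list, was higher (0.69), and Snai1, a repressor of epithelial genes, differed by -0.40. S100a4 was lowest on 1SA.

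Stress lists divided. Of 24 measured immediate early genes, which respond within minutes to signals, 20 were higher and 4 at least 2-fold, Rgs16 among them. With normexp 18 were higher and 1 was past 2-fold. Ier3 was 51.6 in 2SA, 21.8 in WT and 22.8 in 1SA (1.24), Fos was 28.5 in 2SA, 12.5 in WT and 15.4 in 1SA (1.19) over 10 spots and Nr4a1 was 194 in 2SA, 89.9 in WT and 311 in 1SA (1.11). Nr4a1 was highest on 1SA and the other 3 were highest on 2SA. Metallothioneins, which bind zinc and copper, were lower, with Mt1 at 15455 in 2SA, 32264 in WT and 38004 in 1SA (-1.06) and Mt2 at 11598 in 2SA, 22660.3 in WT and 18219.8 in 1SA (-0.97). NRF2 antioxidant targets were lower in 20 of 26 cases, with Srxn1 (sulfiredoxin) at 2809 in 2SA, 5112 in WT and 7341 in 1SA (-0.86) and Nqo1 at -0.49. Heat shock genes and ER chaperones had a median of -0.02 over 31, although Hspa1a, an inducible HSP70, was 17.1 in 2SA, 33.8 in WT and 40.6 in 1SA (-0.98). Among 17 reference genes the median was -0.03, and Actb differed by 0.32 and the brightest of 7 probes of Gapdh by -0.27.

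**Figure D5:**
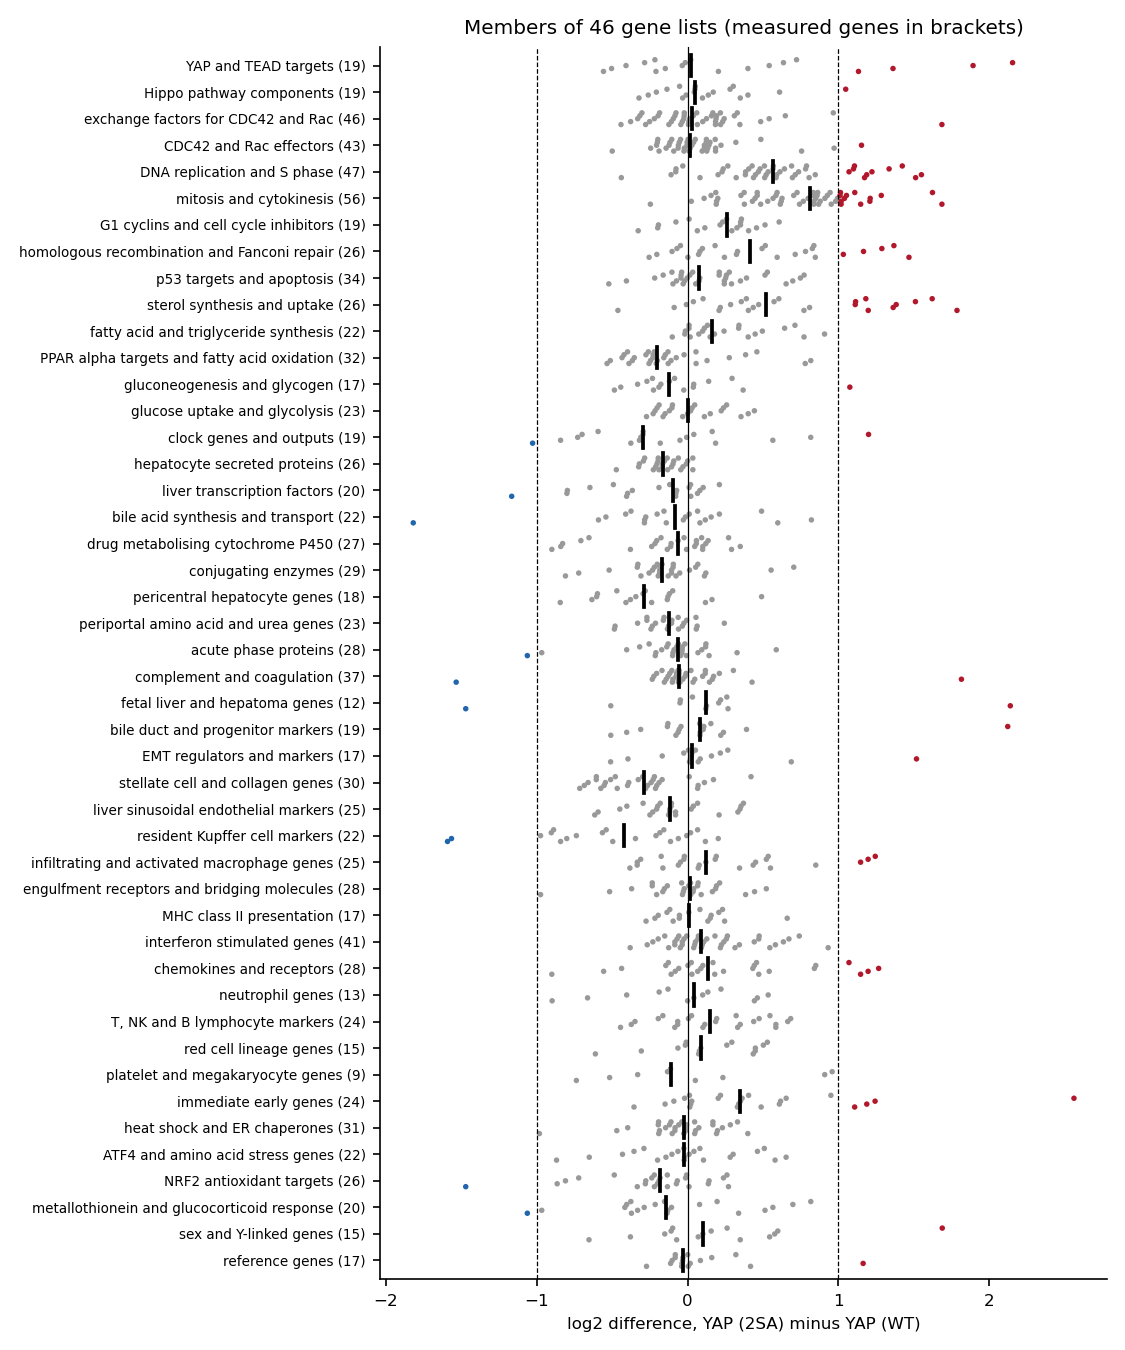
Log2 difference, 2SA minus WT, of the measured members of 46 gene lists (number in brackets); each point is a gene, black bars are list medians, and red and blue mark genes at least 2-fold higher or lower (dashed lines). The medians of DNA replication (0.57), mitosis (0.81) and sterol synthesis (0.52) lie right of the -0.03 over all measured genes, and that of resident Kupffer cell markers (-0.42) lies left.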

How the data were processed

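Mouse liver RNA was measured on 3 1-colour Agilent arrays of 1 slide, with 1 array for each form of YAP. Per the file headers, the authors' scanner files hold Feature Extraction 10.10.1.1 intensities, corrected for background and spatial trend within each array, and the deposited value table holds the same intensities times a constant for each array (3.02 for WT, 3.08 for 1SA and 2.81 for 2SA). Control spots were left out, spots of a probe were averaged and each intensity was divided by the 75th percentile of its array (290.8 for WT, 275.7 for 1SA and 319.5 for 2SA). Probes entered when marked well above background on both arrays compared. Accessions were named through RefSeq, which matched 26762 probes to 20284 symbols, and a gene was given by its brightest measured probe.

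A difference was called at 2-fold, with no test. The groups came from the labels. The genes, 46 lists and alternatives were chosen with earlier results of these data known. The named genes were, by rule, the 4 largest differences in each list, the 15 largest rises and falls over all named genes, the 12 largest of each above the median signal, the 5 largest bounds in each direction and genes the study names. Other list members given with values were chosen after their values were seen, and a few genes that the rule picks are not reported here. Repeated spots gave the spot error, and a bound was taken against the lowest level measured on the dim array or the probe's own level there, whichever was higher. Promoters came from RefSeq on GRCm38.p6, and motifs were searched on both strands.

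Alternatives were quantile normalisation, array medians, normexp on median spot brightness with an offset of 50, no filter, probes above the median signal, the mean over probes, a 3-fold threshold and, added after seeing the data, the deposited table unscaled. The calculation was tested on simulated data. Arrays carry no read depth, and their number limits the precision. Python 3.11.15, pandas 2.3.3, numpy 2.4.6, matplotlib 3.10.9, R 4.3.3 and limma 3.58.1 were used.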

Additional observations from a re-analysis of the deposited data

How the results depend on the processing

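The comparison rests on 1 array for each form of YAP, so no array could be left out, and animal, injection and YAP form cannot be told apart. No paired analysis was possible because the labels share no replicate numbers between the 3 single arrays. Of 80 named genes at least 2-fold apart, none changed direction under any alternative that gave a value, and 55 stayed past 2-fold with normexp background correction. The counts of 261 higher and 207 lower probes became 94 and 48 with normexp, 1832 and 2779 with no filter on dim probes, 86 and 32 for probes above the median signal, and 68 and 64 at 3-fold. The share of called probes that were higher was thus 55.8% as given, 66.2% with normexp, 39.7% with no filter and 72.9% above the median signal, against 57.7% with quantile normalisation, 58.2% with array medians, 51.5% at 3-fold and 60.2% for the deposited table unscaled. With normexp the list medians were 0.46 for DNA replication, 0.53 for mitosis and -0.31 for Kupffer cell markers. Above the median signal they were 0.59 for YAP and TEAD targets, 0.61 for mitosis and -0.28 for Kupffer cell markers. Normexp adds an offset and the unfiltered set includes probes at background, both by construction, and other causes of these shifts were not tested. Over 46 lists, 440 medians under the alternatives stayed within the spread used for comparison and 20 moved beyond it. The 440 include settings that could not move a median. There were 0 saturated spots to leave out, and the deposited table scaled to the 75th percentile repeats the main values. Array medians and the unscaled table shift all genes alike, with a median over all probes of -0.02 and -0.003 in place of -0.03. The 440 are therefore no measure of stability.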

Other observations

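Blood cell genes that appear in no comparison above were read last. Of 15 measured red cell lineage genes 10 were higher and 5 lower, none by 2-fold. The list median was 0.09 and ran from -0.009 to 0.12 under the alternatives. Adult haemoglobin genes were higher in 2SA liver, with Hbb-bt at a difference of 0.53, Hbb-bs at 0.50 and Hba-a1 at 0.45. Alas2 differed by 0.09, while Tfrc, the transferrin receptor, was lower at -0.61. The erythroid markers Hba-a1, Hbb-bs and Alas2 summed to 7096 in 2SA, 5664 in WT and 9464 in 1SA. In the list of 16 platelet and megakaryocyte genes 9 were measured, 4 of them higher and 5 lower. The chemokine gene Pf4 was at 0.96 and the receptor gene Clec1b at -0.74. Class II antigen presentation had a list median of 0.01 over 17 genes. Among genes known to differ by sex in mouse liver, the female-biased Cyp2b9 was at -0.65 and the male-biased Hsd3b5 and Elovl3 were at 0.58 and 0.54.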
